A study of Mus musculus with 51 samples.

Results

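The subtelomeric 5 Mb of every mouse autosome are described here through the histone mark peaks called in them. A member is a peak whose midpoint lies in the last 5 Mb of chromosome 1 to 19, measured from the mm10 chromosome length. Mouse autosomes have the centromere at their start, so that the last 5 Mb are the end away from the centromere. Of 238528 peaks in 20 lists, 11811 are members, and the other 226717 peaks of the autosomes serve as the comparison. The part of the last 5 Mb that has assembled sequence amounts to 92.4 Mb, or 3.86% of the assembled autosomes. Most of the remainder is the unassembled gap at the very end, which is 100 kb long on 17 of the 19 chromosomes and 150 kb long on chromosomes 4 and 6.

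The study sorted nuclei of meiotic prophase from the whole testis of adult wild-type C57BL/6J males and asked how histone marks change between substages. Fixed nuclei were sorted by flow cytometry into leptonema (SCP3 with STRA8), zygonema, early pachynema, late pachynema and diplonema (SCP3 with SCP1 and H1t), and each population was used for ChIP-Seq, which sequences the DNA that an antibody against a histone mark pulls down. Each stage has 2 lists for H3K4me3 (EpiCypher antibody), labelled experiments 1 and 2, and 1 each for H3K4me2/3 (Abcam ab8580, experiment 2) and H3K9ac (experiment 1). All groups share strain, genotype, sex and tissue, and the sources used here do not tie a library to an animal, so p-values measure the spread between these libraries. For H3K9ac the sample titles and the methods name the mark, whereas the antibody label of the same samples reads H3K4me3 with the catalogue entry that the methods list for H3K9ac.

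H3K4me3 marks the start sites of active genes. In early meiotic prophase the methyltransferase PRDM9 places the same mark at its own binding sites, where the DNA breaks that start recombination are then made, and these sites mostly lie away from gene start sites. In the same stages telomeres attach to the nuclear envelope and gather, so that pairing begins close to chromosome ends, and in male mammals recombination is known to be frequent near the ends. A telomere is an array of the repeat TTAGGG. Subtelomeric DNA is often rich in genes, in G and C, and in tandem repeats, which are short units repeated head to tail.

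The sequences of this paragraph show the 2 kinds of distal member that the results turn on. A peak is called distal when it does not touch any TSS window, that is, the stretch from 500 bp before to 500 bp after a transcript start of GENCODE M21. A zygonema distal site is a merged distal region with a peak in both zygonema H3K4me3 libraries. Of the 5 zygonema distal sites with the highest mean width rank, 3 are shown by the 120 bases at their centres, read from the plus strand of the RefSeq copy of GRCm38.p6, the assembly of mm10. None holds any of the 4 words described further below, so they carry no capitals.
Site 1, core of chr19:60478672-60481313: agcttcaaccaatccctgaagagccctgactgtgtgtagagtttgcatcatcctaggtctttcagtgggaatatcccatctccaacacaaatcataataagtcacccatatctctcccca
Site 2, core of chr19:60057060-60060025: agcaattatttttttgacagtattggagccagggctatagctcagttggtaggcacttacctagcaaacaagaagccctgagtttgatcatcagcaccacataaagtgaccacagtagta
Site 3, core of chr6:147648696-147651426: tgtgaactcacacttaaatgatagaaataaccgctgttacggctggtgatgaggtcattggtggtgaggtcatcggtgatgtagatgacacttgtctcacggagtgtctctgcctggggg
The other kind is a tandem-repeat peak. The last 90 assembled bases of chromosome 4 and 100 bases of 3 internal repeats are shown, all from the plus strand. In 17 to 20 of the 20 lists peaks were called at the internal repeats or, for chromosome 4, within 1 kb of the end. The chromosome 4 site called in 20 lists, chr4:156356804-156357905, ends before the bases shown. The 4 stretches hold no TTAGGG and carry no capitals.
End of chromosome 4, chr4:156358027-156358116, peak within 1 kb in 20 lists: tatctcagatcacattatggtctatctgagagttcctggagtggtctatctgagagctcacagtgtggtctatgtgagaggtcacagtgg
Internal repeat on chromosome 6, chr6:147236777-147236876, peak in 20 lists: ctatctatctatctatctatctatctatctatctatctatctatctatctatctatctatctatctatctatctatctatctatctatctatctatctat
Internal repeat on chromosome 14, chr14:122568970-122569069, peak in 19 lists: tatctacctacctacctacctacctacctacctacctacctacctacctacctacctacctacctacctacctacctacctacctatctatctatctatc
Internal repeat on chromosome 19, chr19:60410537-60410636, peak in 17 lists: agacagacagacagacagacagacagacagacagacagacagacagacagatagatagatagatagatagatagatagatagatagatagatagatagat

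The lists hold the position of each peak and no height, so the depth of the libraries is unknown and all intervals given are exact Clopper-Pearson intervals (95%) that cover counting error only. The number of members per list ranged from 247 to 717 for H3K4me3, from 801 to 1560 for H3K4me2/3 and from 34 to 768 for H3K9ac. GC content was 43.8% in the last 5 Mb and 41.9% in the rest. Merged TSS sites were 39.5 per Mb in the ends (3652 sites) and 30.0 per Mb in the rest (69050 sites), a ratio of 1.32. The sort kept nuclei with 4C DNA content that carry SCP3, a gate that should leave out spermatids and somatic cells. The purity that the study reports differed between stages and experiments. It was lowest for zygonema experiment 2, below that of zygonema experiment 1. The part of purity in the ratios below was not tested. Of 5 TSS markers of spermatogonia, leptonema had 1 and 2, zygonema 1 and 0, and the 6 later H3K4me3 lists 0. Of 4 Sertoli cell markers, leptonema H3K4me3 experiment 2 had 3, zygonema H3K4me3 experiment 2 had 1 and the other 8 H3K4me3 lists 0. The lists had 0 to 1 of 5 round spermatid markers and 0 to 1 of 5 Leydig cell markers.

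At zygonema, distal H3K4me3 peaks were slightly denser in the chromosome ends than elsewhere. Experiment 1 had 366 distal members, 3.96 per Mb against 3.47 per Mb in the rest, a density ratio of 1.14 (interval 1.03 to 1.27). Experiment 2 had 225 distal members, 2.44 per Mb against 1.77 per Mb, a ratio of 1.38 (1.20 to 1.58). The mean ratio was 1.26 ± 0.167 (SD, n = 2 libraries). Both libraries lay above 1, and their intervals overlapped. When the ends and the rest were compared within 5 classes of GC content, measured in bins of 100 kb, the ratios were 0.998 in experiment 1 and 1.16 in experiment 2. The class with the highest GC content held 41.5% of the bins in the ends.

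**Figure D1:**
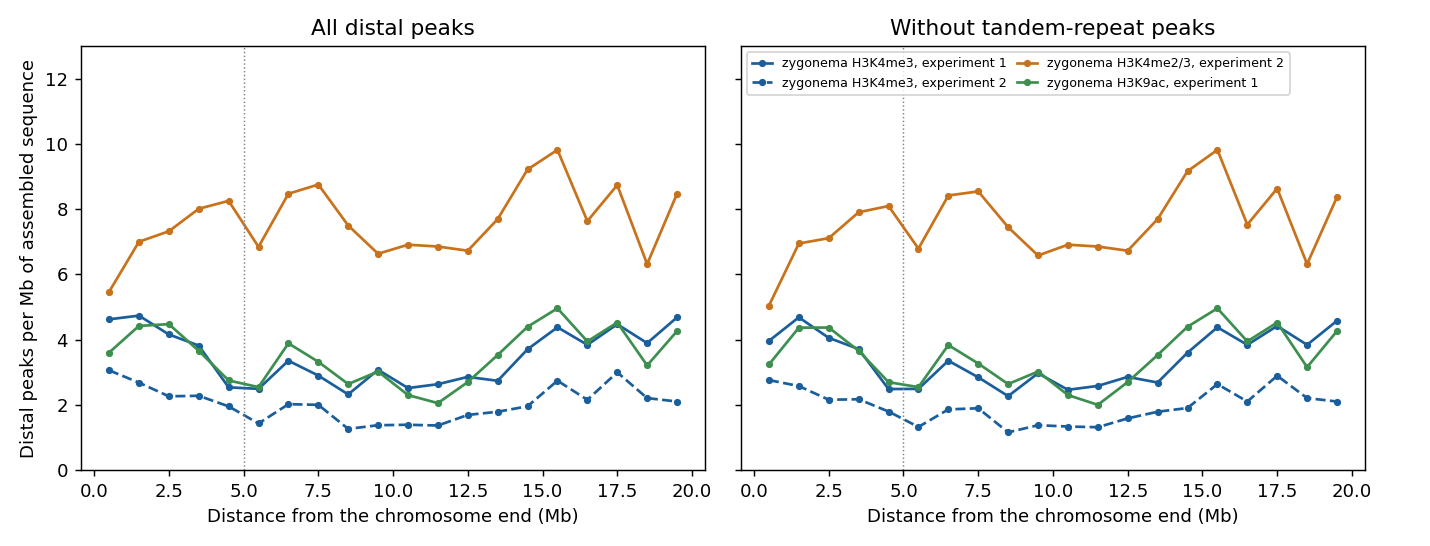
Distal peaks per Mb of assembled sequence (y axis) against the distance from the chromosome end in bins of 1 Mb (x axis), summed over 19 autosomes, for the 4 zygonema lists, with all distal peaks on the left and without tandem-repeat peaks on the right. The dotted line marks 5 Mb. In both H3K4me3 lists and the H3K9ac list most bins between 5 and 15 Mb lie below the outer bins and below those at 15 to 20 Mb, and the H3K4me2/3 list was lowest in the outermost bin.

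The zygonema density did not decline steadily from the end inward. In experiment 1 it was 3.96 per Mb in the last 5 Mb, 2.86 per Mb between 5 and 15 Mb, 4.25 per Mb between 15 and 20 Mb and 3.72 per Mb between 20 and 60 Mb. In experiment 2 the same zones had 2.44, 1.63, 2.44 and 1.91 peaks per Mb. The ends thus had a density close to that of the zone at 15 to 20 Mb in both libraries and above that of the zone next to them. The first 5 Mb of assembled sequence at the centromere side held 2.61 per Mb in experiment 1 and 1.22 per Mb in experiment 2. Within the ends, the 1 Mb bins of experiment 1 ran from 4.62 per Mb in the outermost bin and 4.74 per Mb in the next to 2.54 per Mb between 4 and 5 Mb.

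Across the stages, all 10 H3K4me3 libraries had a distal density ratio above 1, with a geometric mean of 1.88. An exact sign-flip permutation test over the 10 libraries (two-sided, every combination of signs) gave p = 0.00195, the smallest it can give, and 0.00781 after Benjamini-Hochberg adjustment over the 8 tests of density and occupancy. Within GC classes the geometric mean was 1.29 and the call was lost (exact sign-flip permutation test, adjusted p = 0.0547), with leptonema and zygonema of experiment 1 below 1 (0.86 and 0.998). The libraries share 1 genome, so the test covers the spread between libraries and not between chromosome ends. At leptonema the ratios were 1.19 (89 members, interval 0.95 to 1.47) in experiment 1 and 1.62 (210 members, 1.4 to 1.87) in experiment 2. At early pachynema they were 2.40 and 3.78, with 22 members in each library. At late pachynema they were 2.80 (22 members) and 1.93 (82 members), and at diplonema 2.20 (69 members) and 1.65 (147 members). The high ratios of the pachynema lists thus rested on few peaks.

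Zygonema was not separated from the other stages by this ratio. The difference of means was -0.934 (1.26 against 2.20, exact permutation test over 45 splits of 2 against 8 libraries, two-sided p = 0.133, adjusted p = 0.213). Leptonema and zygonema together had a lower mean ratio than the 3 later stages, 1.33 against 2.46, a difference of -1.13 (exact permutation test over 210 splits of 4 against 6 libraries, two-sided p = 0.0143, adjusted p = 0.0381). The 4 earlier libraries lay between 1.14 and 1.62 and the 6 later ones between 1.65 and 3.78, without overlap. The call was lost when any 1 of 6 libraries was left out (either leptonema or zygonema library, early pachynema experiment 1 or diplonema experiment 1), with differences between -1.29 and -0.861 over all 10 libraries left out. It did not persist either when tandem-repeat peaks were left out, as given next.

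A distal peak was called a tandem-repeat peak when its sequence matched itself at 70.0% or more of its bases after a shift of 1 to 50 bp. Each of the 10 H3K4me3 libraries had 10 to 19 such members, in long lists and short lists alike. They were 17 of 366 distal members (4.64%) in zygonema experiment 1 and 14 of 225 (6.22%) in experiment 2, but 14 of 22 (63.6%) and 16 of 22 (72.7%) at early pachynema and 15 of 22 (68.2%) in late pachynema experiment 1. In the rest of the autosomes the share of tandem-repeat peaks among distal peaks was lower in all 20 lists, for example 1.11% in zygonema experiment 1 and 15.3% in early pachynema experiment 1. Without tandem-repeat peaks the ratios of experiments 1 and 2 were 1.03 and 1.53 at leptonema, and 1.10 and 1.32 at zygonema. For early pachynema they were 1.03 and 1.37, for late pachynema 1.03 and 1.92, and for diplonema 1.81 and 1.57. The interval of zygonema experiment 1, 0.987 to 1.23, included 1. So did those of leptonema experiment 1, both early pachynema libraries and late pachynema experiment 1. The difference between the earlier and the later stages was then -0.209 (exact permutation test, p = 0.352, adjusted p = 0.705). All 10 libraries stayed above 1 with a geometric mean of 1.34 (exact sign-flip permutation test, adjusted p = 0.00781), and with the GC classes applied as well the geometric mean was 1.06 (adjusted p = 0.832).

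**Figure D2:**
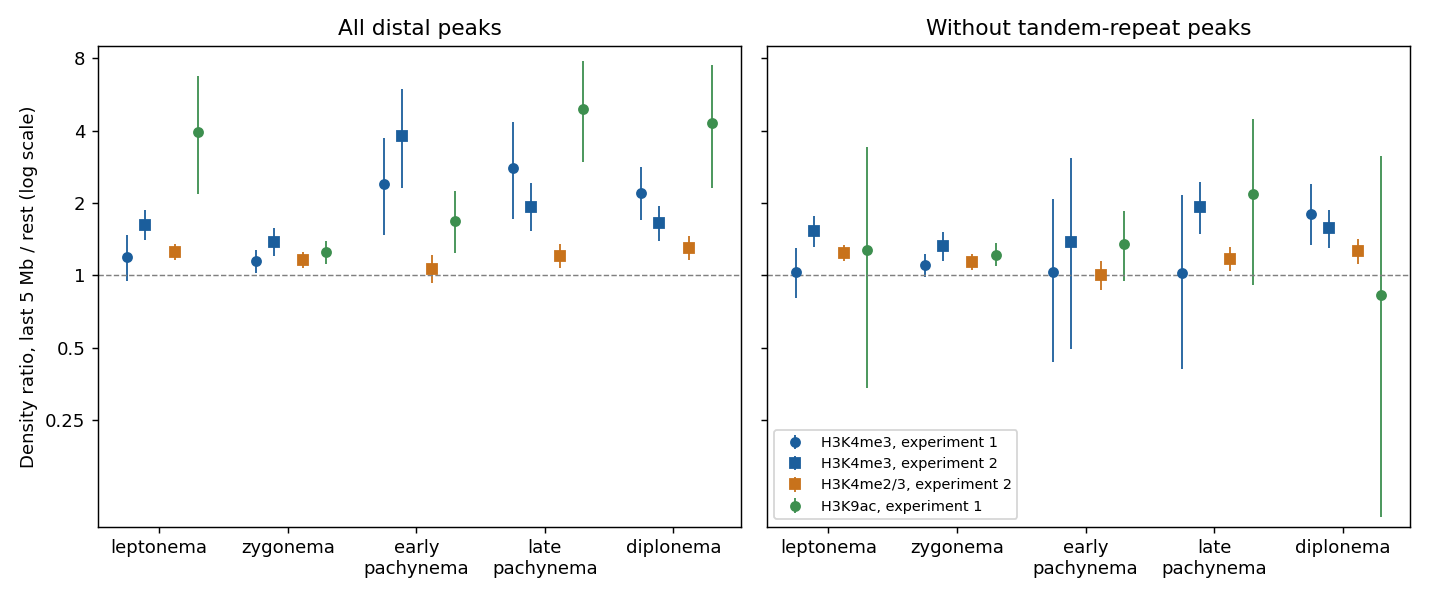
Density ratio of distal peaks, last 5 Mb against the rest of the autosomes, on a log scale (y axis) for each stage (x axis), with all distal peaks on the left and without tandem-repeat peaks on the right. Each point is 1 list and bars are exact 95% intervals for counting error. On the left the zygonema H3K4me3 points at 1.14 and 1.38 are among the lowest and early pachynema reaches 3.78, and on the right the H3K4me3 points lie between 1.03 and 1.92 with wide bars at pachynema.

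Part of the tandem-repeat members lay at the end of the assembled sequence. The last 300 assembled bases held copies of TTAGGG on 18 of 19 chromosomes, from 6 copies on chromosome 9 to 49 copies on chromosomes 2, 7, 12, 14 and 18, and none on chromosome 4, which ends in another tandem repeat with a best period of 24 bp. An edge peak, one ending within 1 kb of the last assembled base, was present in at least 1 list on 14 chromosomes. It was present in 20 lists on chromosome 4, in 19 lists on chromosomes 3 and 14 and in 14 lists on chromosomes 2 and 7. Chromosomes 5, 8, 9, 15 and 18 had no edge peak in any list, although chromosome 18 ends in 49 copies. Zygonema had edge peaks on 11 chromosomes in experiment 1 and on 4 in experiment 2, and the range over the 20 lists was 1 to 12. Of the H3K4me3 lists, all 5 of experiment 1 but 1 or 2 of experiment 2 had an edge peak on chromosomes 2, 7, 11, 12, 16 and 19. Without edge peaks the ratios of the 2 zygonema libraries were 1.11 and 1.35, and the difference between earlier and later stages was -0.348 (exact permutation test, adjusted p = 0.165). How reads of repeated sequence were placed by the aligner was not tested.

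Merging the distal peaks of all 20 lists gave 1463 distal sites in the ends and 29850 in the rest. In the ends 651 sites (44.5%) were called in 1 list, 656 (44.8%) in 2 to 5 lists and 137 (9.36%) in 6 to 11 lists, beside 43.9%, 46.5% and 9.15% of all sites. Sites called in 12 or more lists made up 19 of 1463 (1.30%) in the ends and 151 of 29850 (0.506%) in the rest, with 0.543% over all 31313 sites. Sites called in all 20 lists numbered 3 in the ends and 4 in the rest, 0.0224% over all sites. Of the 19 recurrent sites in the ends, 12 were tandem repeats, 8 of them at an assembly edge, and 7 were neither. The 3 sites in all 20 lists were chr4:156356804-156357905 near the end of chromosome 4, the CTAT repeat on chromosome 6 shown above, and chr19:61265418-61267189. The CTAT repeat lies 15148 bp from Pthlh (parathyroid hormone-like hormone), and the chromosome 19 site is not a tandem repeat.

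H3K4me2/3 and H3K9ac had 1 list per stage, so their ratios carry counting intervals and no test. H3K4me2/3 ratios for distal members were 1.25 at leptonema and 1.16 at zygonema (interval 1.07 to 1.25, 670 members). The 3 later stages had 1.06, 1.21 and 1.30 in their order. The early pachynema interval, 0.928 to 1.22, included 1 and the other 4 did not. After tandem-repeat peaks were left out these ratios were between 1.00 and 1.26, and within GC classes they were between 0.843 and 0.976 with all peaks. H3K9ac is an acetyl mark of active promoters, and the study also found it at sites of meiotic DNA breaks, most strongly at zygonema. The zygonema H3K9ac list had a ratio of 1.25 (interval 1.12 to 1.39) from 350 members, 10 of them tandem repeats. The other H3K9ac lists had ratios of 3.95 from 16 distal members (leptonema), 1.68 from 50 (early pachynema), 4.90 from 22 (late pachynema) and 4.30 from 15 (diplonema). In the diplonema list 13 of the 15 were tandem-repeat peaks. Without such peaks the H3K9ac ratios were 1.28 at leptonema, 1.22 at zygonema, 1.35 (early pachynema), 2.17 (late pachynema) and 0.831 (diplonema), and the interval of the zygonema list alone left out 1. Within GC classes, with all peaks, the zygonema H3K9ac ratio was 0.982.

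The members called in both zygonema libraries were then followed through the other lists. There were 150 zygonema distal sites in the ends, 1.62 per Mb, and 3137 in the rest, 1.36 per Mb, a ratio of 1.19 (interval 1.01 to 1.4). Without tandem-repeat sites the numbers were 142 and 3122 and the ratio was 1.13 (0.952 to 1.34). In the ends 29 sites touched an exon, 56 lay in an intron and 65 (43.3%) lay between genes, compared with 39.7% between genes in the rest. Their median width was 1072 bp in the ends and 1057 bp in the rest.

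These sites were called in leptonema H3K4me3 experiment 1 for 66 of 150 (44.0%, interval 35.9 to 52.3) in the ends and 42.7% over all 3287 sites. In leptonema experiment 2 the numbers were 60 of 150 (40.0%) and 35.2%. At least 1 of the 6 later H3K4me3 lists had a peak at 14 of 150 sites (9.33%, interval 5.2 to 15.2), beside 4.78% over all sites. List by list, early pachynema had 9 sites (6.00%, beside 3.01%) in experiment 1 and 10 (6.67%, beside 1.86%) in experiment 2. Late pachynema had 9 (6.00%, beside 2.01%) and 10 (6.67%, beside 3.59%), and diplonema 11 (7.33%, beside 2.34%) and 13 (8.67%, beside 4.23%). No H3K4me3 list of a later stage had a peak at 136 sites (90.7%, beside 95.2%). Without tandem-repeat sites the share with a later peak was 7 of 142 (4.93%, interval 2.00 to 9.89) in the ends and 4.23% in the rest. The H3K9ac list of zygonema had a peak at 129 of 150 (86.0%) in the ends and at 85.5% of all sites, whereas the H3K9ac list of leptonema had one at 10 of 150 (6.67%, beside 1.83% over all sites) and that of early pachynema at 11 of 150 (7.33%, beside 3.71%). In late pachynema and diplonema H3K9ac had a peak at 7 and 8 sites (4.67%, beside 0.821%, and 5.33%, beside 0.791%). The H3K4me2/3 list of zygonema had a peak at 146 of 150 (97.3%, beside 97.7%) and that of leptonema at 128 of 150 (85.3%, beside 79%). The later H3K4me2/3 lists had a peak at 24 of 150 sites (early pachynema, 16.0%, beside 9.8%), 16 (late pachynema, 10.7%, beside 6.36%) and 15 (diplonema, 10.0%, beside 5.66%). Most of these zygonema sites in the ends were thus shared with zygonema H3K9ac and with H3K4me2/3 of the first 2 stages and not called later, as in the rest of the autosomes. The H3K4me2/3 antibody also binds H3K4me3, and its zygonema list is from experiment 2, which helped to choose these sites. Its overlap with them is therefore no independent support. The zygonema H3K9ac list is from experiment 1, which also helped to choose these sites.

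**Figure D3:**
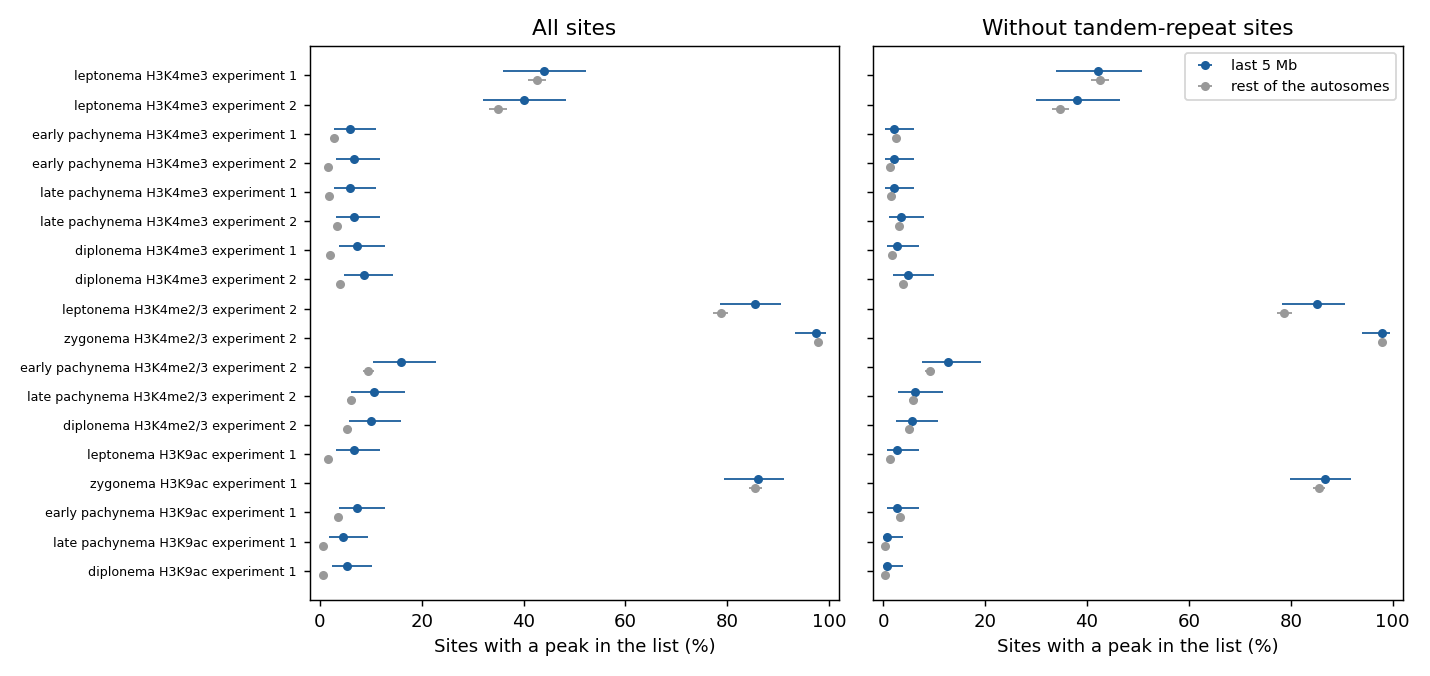
Share of zygonema distal sites with a peak in each of 18 other lists (x axis, percent), for the last 5 Mb (blue) and the rest of the autosomes (grey), with all sites on the left and without tandem-repeat sites on the right. Bars are exact 95% intervals. On the left the blue points of the later H3K4me3 lists (6.00% to 8.67%) lie above the grey ones, and on the right the intervals of ends and rest overlap in all lists drawn.

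The 3 wide zygonema distal sites whose centres are shown above lay between genes on chromosomes 19 and 6. Site 1 was 2642 bp wide and 10367 bp from Prlhr, the receptor of prolactin releasing hormone. Site 2 was 2966 bp wide and 113405 bp from Rab11fip2, a partner of a vesicle GTPase. Site 3 was 2731 bp wide and 16083 bp from Ccdc91. All 3 had peaks in both leptonema and both zygonema H3K4me3 lists, in none of the 6 later H3K4me3 lists, and in the zygonema H3K9ac list. Site 1 had a peak in 7 lists and sites 2 and 3 in 8 each, the eighth being H3K4me2/3 of early pachynema.

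Words of 8 bp near the centres were chosen on zygonema distal sites of the rest of the autosomes and then counted in the ends. The 4 words kept were GCAGCAGC, AGATGCTA, ATCTTCTG and CTACTACC, each searched on both strands within 100 bp of the centre, without tandem-repeat sites. GCAGCAGC overlaps its own repetition by 3 bp shifts. In the ends GCAGCAGC was found at 12 of 142 centres (8.45%, interval 4.44 to 14.3) and in 0.880% of flanking windows of 200 bp, compared with 6.44% of centres and 1.30% of flanks in the rest. At least 1 of the 4 words stood in 19 of 142 centres in the ends (13.4%, interval 8.25 to 20.1) and in 13.9% of centres in the rest, with 4.4% and 4.00% of the flanks. The share of centres with at least 1 of the words was thus similar in the ends and in the rest. AGATGCTA stood in 4 of 142 centres in the ends (2.82%, interval 0.773 to 7.06), beside 3.20% in the rest. ATCTTCTG stood in 2 (1.41%, interval 0.171 to 5.00, beside 3.20%) and in 1.76% of the flanks in the ends. CTACTACC stood in 1 (0.704%, interval 0.0178 to 3.86, beside 1.76%). These words were thus rarer in the ends and GCAGCAGC was more frequent, but each interval included the share in the rest. The 3 widest sites with GCAGCAGC are shown with the word in capitals, 60 bases in the direction of the word.
Minus strand, chr14:124223617-124223676: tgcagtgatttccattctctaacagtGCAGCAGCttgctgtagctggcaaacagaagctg
Plus strand, chr1:194640783-194640842: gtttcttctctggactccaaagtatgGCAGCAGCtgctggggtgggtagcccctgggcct
Plus strand, chr1:194506210-194506269: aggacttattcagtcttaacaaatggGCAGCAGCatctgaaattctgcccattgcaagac
The word stood 42, 6 and 5 bp from the centres of these 3 sites, which had peaks in 8, 8 and 7 lists.

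Chromosome ends differed among themselves. In zygonema experiment 1 the ratio was above 1 on 12 of 19 chromosomes and in experiment 2 on 14. The ends of chromosomes 6, 7 and 14 had the highest mean ratios. Chromosome 6 had 34 and 19 distal members in experiments 1 and 2 (ratios 2.05 and 2.24), chromosome 7 had 29 and 17 (1.90 and 2.23), and chromosome 14 had 20 and 19 (1.31 and 2.51). The lowest were chromosome 9 with 11 and 5 (0.595 and 0.515), chromosome 18 with 14 and 2 (0.900 and 0.261) and chromosome 12 with 19 and 2 (1.02 and 0.216). Chromosome 9 was low in both libraries, whereas chromosomes 12 and 18 were low in experiment 2. Without chromosome 6 the mean zygonema ratio was 1.21.

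**Figure D4:**
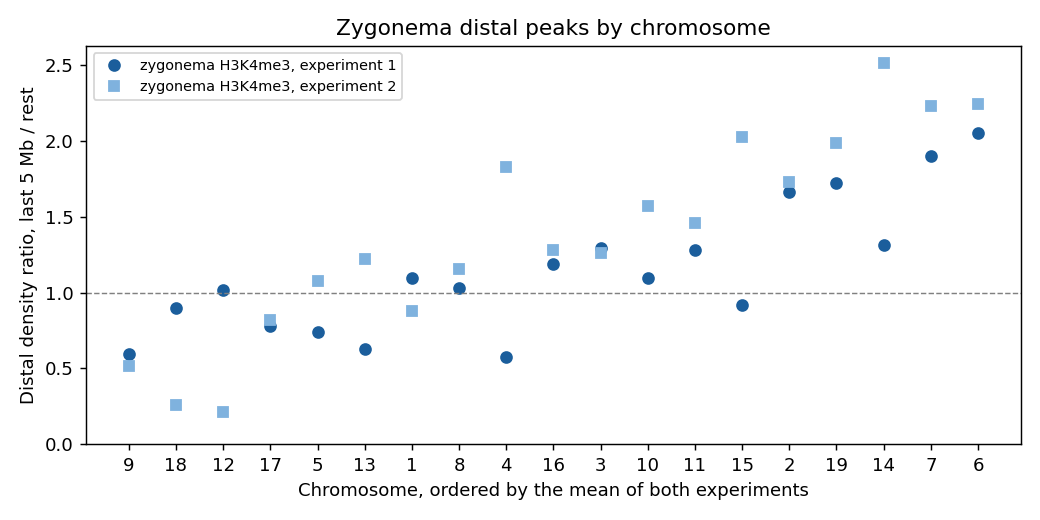
Distal density ratio of the last 5 Mb against the rest of the same chromosome (y axis) for each autosome (x axis, ordered by the mean of both experiments), in the 2 zygonema H3K4me3 libraries. Both libraries are below 1 on chromosome 9 (0.595 and 0.515) and above 1.9 on chromosomes 6 and 7.

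At TSSs the ends were also denser in peaks, by about as much as they were denser in TSSs. The density ratio of TSS peaks over the 10 H3K4me3 libraries had a geometric mean of 1.29 (10 of 10 above 1, exact sign-flip permutation test, p = 0.00195, adjusted p = 0.00781), beside the ratio of 1.32 for TSS sites themselves. Occupancy is the share of merged TSS sites touched by a peak. Zygonema occupancy was 9.67% in the ends and 10.2% in the rest in experiment 1, and 9.64% and 9.71% in experiment 2. The occupancy ratio over the 10 libraries had a geometric mean of 0.978 and was above 1 in 4 libraries, ranging from 0.928 to 1.03 (exact sign-flip permutation test, p = 0.0840, adjusted p = 0.168). Zygonema did not differ detectably from the other stages in TSS density ratio (difference -0.0107, exact permutation test, p = 0.844), nor leptonema and zygonema from the later stages in TSS density ratio (0.0169, exact permutation test, p = 0.605, adjusted p = 0.713) or in occupancy ratio (0.0112, exact permutation test, p = 0.624, adjusted p = 0.713).

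Unlike over the last 5 Mb, the TSS occupancy ratio nearer to the telomere differed between the earlier and the later libraries. Adjusted p-values cover the tests within 1 length of the end and not the several lengths tried. In the last 2 Mb the occupancy ratio averaged 1.01 over the 4 leptonema and zygonema libraries and 0.907 over the 6 later libraries, a difference of 0.103 (exact permutation test, p = 0.00476, the smallest possible, adjusted p = 0.00952). It lay between 0.0922 and 0.111 when each library was left out and between 0.0755 and 0.132 when each chromosome was left out. Over protein-coding TSS sites alone the difference was 0.0546 (0.839 against 0.785, exact permutation test, adjusted p = 0.0286), with the lowest earlier library at 0.826 and the highest later one at 0.823. In the last 1 Mb, a distance chosen after these values were seen, 748 TSS sites were counted. Leptonema had ratios of 0.932 and 0.95 and zygonema 0.890 and 0.854 in experiments 1 and 2. Early pachynema had 0.710 and 0.596, late pachynema 0.723 and 0.799 and diplonema 0.780 and 0.815. All 10 were below 1 and the earlier libraries lay above the later ones without overlap (difference 0.170, exact permutation test, adjusted p = 0.0152). Of 245 protein-coding genes in the last 1 Mb, 146 had a peak in no H3K4me3 list, beside 9319 of 20807 in all. The 146 include a run of genes on chromosome 4 without a peak in any list, described below. Chromosome 4 held 85 of the 748 TSS sites. The part of this run in the ratios below 1 was not tested. With the 4883 widest peaks of every list the difference between earlier and later libraries was 0.292 (exact permutation test, adjusted p = 0.0127). This setting selects on peak width as well as on list size. Without leptonema experiment 2, the list with most Sertoli cell markers, the difference with all peaks was 0.156 (exact permutation test, p = 0.0238). Over protein-coding TSS sites it was 0.0879 and missed the threshold (exact permutation test, adjusted p = 0.0952), and the groups overlapped. The spermatogonial markers given above were likewise called in leptonema and zygonema H3K4me3 lists and in no later H3K4me3 list. H3K4me2/3 had all 5 of these markers at leptonema and at zygonema and 3 of 5 at each later stage. The part of these markers in the occupancy difference was not tested. The largest differences in occupied TSS sites were on chromosome 19 (mean 9.75 in the earlier and 3.83 in the later libraries), chromosome 6 (9.50 and 4.50) and chromosome 2 (15.5 and 11.2).

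**Figure D5:**
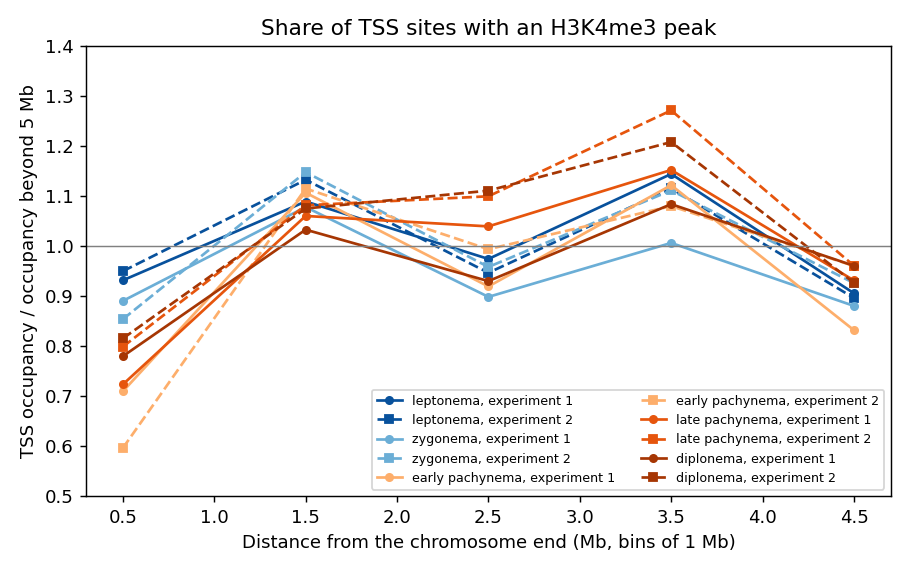
Occupancy of TSS sites relative to that beyond 5 Mb (y axis) by distance from the chromosome end in bins of 1 Mb (x axis), for each of the 10 H3K4me3 libraries. In the outermost bin the leptonema and zygonema lines (0.854 to 0.95) lie above those of the later stages (0.596 to 0.815), and in the other bins the stages are mixed.

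The ends held the TSS of 1124 protein-coding genes. All 10 H3K4me3 lists had a peak at 172 of them (15.3%, interval 13.2 to 17.5), beside 18.2% of all 20807 autosomal genes. No H3K4me3 list had a peak at 537 (47.8%, interval 44.8 to 50.7), beside 44.8% of all genes. The 537 include every protein-coding gene from Atad3a to Samd11 on chromosome 4, 0.747 to 0.252 Mb from the end. Genes of this run had no peak in any of the 20 lists, and whether reads can be placed there was not tested. The share of the 1124 genes with a TSS peak was lower than that over all genes in each of the 20 lists. In leptonema H3K4me3 it was 35.5% (399 genes) in experiment 1 and 43.0% (483 genes) in experiment 2, beside 39.2% and 47.1% of all genes. In zygonema it was 32.0% (360 genes) in each experiment, beside 36.9% and 35.9%. In early pachynema it was 29.4% and 21.9%, beside 34% and 25.5%. Late pachynema had 23.8% and 38.0%, beside 26.8% and 40.3%, and diplonema 25.0% and 44.2%, beside 29.3% and 46.8%. H3K4me2/3 lists had 63.6% at leptonema and 57.5% at zygonema, beside 65.7% and 60.5%, and then 48.8%, 52.5% and 51.2% at the later stages, beside 54.6%, 56.4% and 54.3%. H3K9ac lists had 13.9% at leptonema and 37.2% at zygonema, beside 14.9% and 41.9%, and then 30.5%, 7.03% and 1.69%, beside 35.7%, 8.36% and 2.08%. Over TSS sites of protein-coding genes alone the occupancy ratio of the 10 H3K4me3 libraries had a geometric mean of 0.873, and the adjusted p was 0.00521 (exact sign-flip permutation test), whereas over all TSS sites it was 0.978.

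The widest peaks over the 10 lists stood at Ppp2r3d, a phosphatase subunit gene on chromosome 9, with a mean of 1995 bp and a range of 501 to 4685 bp. Next came Dyrk1a, which encodes a protein kinase (mean 1820 bp), Tnrc6c, which acts in silencing by microRNAs (1788 bp), and Actg1, which encodes gamma actin (1782 bp). Actg1 widths ran from 692 bp in zygonema experiment 2 to 3167 bp in diplonema experiment 2, with the 4 leptonema and zygonema values (775, 1961, 1271 and 692 bp) mostly below the late pachynema and diplonema values (1958 to 3167 bp).

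Of 129 autosomal genes listed for their roles in meiosis and spermiogenesis, 7 lay in the ends (5.43%), close to the 5.40% of all protein-coding genes. Of these 7 genes, 5 had a peak in all 10 H3K4me3 lists, compared with 38 of the 129. Syce1 and Sycp2, which encode parts of the synaptonemal complex, had a peak in all 10 lists. Syce1 peaks were 211 to 992 bp wide and Sycp2 peaks 350 to 1482 bp. Tcfl5, a transcription factor of spermatocytes, Tdrd1, which acts in the piRNA pathway, and Brca2, which loads the strand exchange proteins, also had 10 of 10. Cdk2, a kinase present at crossover sites and telomeres, had 8 of 10, with no peak in early pachynema experiment 2 and late pachynema experiment 1. Rtel1, a helicase that protects telomeres and lies 0.757 Mb from the end of chromosome 2, had 7 of 10 and lacked a peak in these lists and in diplonema experiment 1. Gfra1, a marker of spermatogonial stem cells, had none of 10 and 3 of 5 in H3K4me2/3.

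Peaks in both leptonema and both zygonema lists and in no later H3K4me3 list were found at 3 genes of the ends (0.267%), beside 0.533% of all genes. They were Zfp941 (widths 469, 363, 751 and 732 bp in leptonema and zygonema experiments 1 and 2), Tpd52l2 (526, 623, 464 and 150 bp) and Tmem206, an acid-activated chloride channel (480, 647, 335 and 285 bp). Peaks in both diplonema lists and in no leptonema or zygonema list stood at 22 genes (1.96%), beside 2.35% of all genes. Ppp1r27, a regulator of a protein phosphatase, led these with 1953 and 2443 bp at diplonema and 2195 bp in late pachynema experiment 2. Nab2, a corepressor of early growth response factors, had 2213 and 2149 bp, and Ptchd3, a gene of the male germ line, had 2438 and 2475 bp and was also called at both pachynema stages in both experiments. Fam186a, Phactr3 and Smco2 followed with diplonema widths of 872 to 1436 bp, 924 to 1228 bp and 672 to 1324 bp. In the last 1 Mb, 4 of 245 genes had a peak in at least 3 of the 4 earlier lists and in at most 1 of the 6 later ones, beside 554 of 20807 genes in all. The opposite pattern, at most 1 earlier list and at least 5 later ones, was seen at 2 of 245 genes and at 148 of 20807 in all. The earlier pattern was thus a smaller share of genes in the last 1 Mb than over all genes, and the opposite pattern a similar share. These gene classes do not show the difference in TSS occupancy between earlier and later libraries given above. The 4 genes of the earlier pattern, named after their values were seen, are Tpd52l2, Rgs19, Dok6 and Csf2ra. Csf2ra, a cytokine receptor subunit 0.203 Mb from the end of chromosome 19, had widths of 2495, 2730, 1860 and 1570 bp in the earlier lists and 398 bp in diplonema experiment 2, with no peak in the other 5.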

How the data were processed

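Reads were mapped by the authors with BWA 0.7.12 (mm10), who called peaks per library with MACS2 2.1.2 in broad mode. Input of the same stage as control is stated for H3K4me3, and for H3K9ac the control is not given in the sources used here. The deposited lists hold chromosome, start and end only, so their coordinates (unit: other) were used as called or not called, without depth. Of 51 samples, 31 were not analysed here.

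Densities are peaks per Mb of assembled sequence. Distal peaks share no base (minimum overlap 1 bp) with TSS windows. Tests were exact permutation tests over the 10 H3K4me3 libraries, with a threshold of 0.05 and Benjamini-Hochberg adjustment over the 8 tests. The adjustment was made separately within each alternative. Steps were tested on simulated peaks. Python 3.11.15, numpy 2.4.6, scipy 1.17.1 and pandas 2.3.3 were used. Genes named are the listed meiosis and marker genes in the ends, the early-only genes, the first 6 diplonema-only genes and the 4 widest, with 3 of the 5 widest zygonema sites (the others are not reported here) and the 3 highest and 3 lowest chromosomes. The members, gene lists and tests were chosen with earlier results of these data known. Alternatives were the length of the end, the TSS window, protein-coding TSSs, equal list sizes, the peaks above each list's median width, GC classes, whole chromosome length, chromosome 6 or each library left out and a replicate block. Equal list sizes kept the 4883 widest peaks of each list. Leaving out edge or tandem-repeat peaks and the last 1 Mb, and equal list sizes or protein-coding TSSs in the last 1 or 2 Mb, were added after seeing the data.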

Additional observations from a re-analysis of the deposited data

Results flagged for a closer look

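The distal density ratio differed between leptonema with zygonema and the 3 later stages by -1.13 (1.33 against 2.46, exact permutation test, adjusted p = 0.0381). It was singled out because 2 groups of stages differed in the same contrast of ends with the rest by a test. The value without tandem-repeat peaks was -0.209 (exact permutation test, adjusted p = 0.705), and 6 of 10 libraries ended the call when left out alone.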

How the results depend on the processing

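Depth is unknown, so a site without a peak may carry the mark below the calling threshold, and short lists limit the pachynema and H3K9ac ratios. Whole chromosome length changed none of the 6 density calls. Without chromosome 6, run for the zygonema ratio alone, that ratio was 1.21. Adjusted p-values are from exact permutation tests. The difference in distal ratio between leptonema with zygonema and the later stages lost its call in the last 2 Mb (-1.87), with 1000 bp TSS windows (-1.30), protein-coding TSSs (-0.615), the peaks above the median width (-1.0), GC classes (-0.464), no edge peaks (-0.348), no tandem-repeat peaks (-0.209), and no tandem-repeat peaks with GC classes (-0.107) or equal list sizes (-0.356). With a replicate block it was -1.13 (exact permutation test within experiments, adjusted p = 0.1). The experiment numbers share no stated batch, and the differences between experiments correlated across chromosomes from -0.266 to 0.570 over 10 pairs of stages (median 0.254), so the numbers were not taken as a pairing. The block changed none of the other 4 stage comparisons.

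The mean zygonema ratio was 1.48 in the last 2 Mb, 1.06 in the last 10 Mb, 1.08 with GC classes and 1.05 with GC classes and no tandem-repeat peaks. The ratio over all libraries was 1.29 with GC classes (exact permutation test, adjusted p = 0.0547) and 1.06 without tandem-repeat peaks as well. The zygonema difference in TSS density ratio turned to 0.0692 in the last 2 Mb and 0.0147 with 1000 bp windows. The earlier-against-later difference in TSS density ratio was 0.128 in the last 2 Mb (exact permutation test, adjusted p = 0.00952) and 0.220 in the last 1 Mb (0.0152), and turned to -0.0258 in the last 10 Mb, -0.00926 with protein-coding TSSs and -0.00740 with equal list sizes. The occupancy ratio was 0.946 in the last 2 Mb (0.0375), 0.797 in the last 1 Mb (0.00781), 1.01 in the last 10 Mb, 0.873 with protein-coding TSSs (0.00521) and 0.956 with equal list sizes (0.00521). Its stage difference was 0.103 in the last 2 Mb (0.00952), 0.170 in the last 1 Mb (0.0152), 0.292 and 0.116 at equal list sizes in the last 1 and 2 Mb (0.0127 and 0.0381), 0.0546 and 0.0879 over protein-coding TSSs in the last 2 and 1 Mb (0.0286 and 0.0952), and turned to -0.0232 in the last 10 Mb, -0.00609 with protein-coding TSSs and -0.00115 with equal list sizes.

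With each library left out in turn, the mean zygonema ratio was 1.14 to 1.38, zygonema against other stages -1.08 to -0.707, earlier against later stages -1.29 to -0.861 (call lost without either leptonema or zygonema library, early pachynema experiment 1 or diplonema experiment 1, adjusted p up to 0.127) and the ratio over all libraries 1.73 to 1.98. The TSS density ratio was 1.28 to 1.30, its zygonema difference -0.0411 to 0.0198, its earlier-later difference 0.00569 to 0.0333, occupancy 0.972 to 0.984 and its stage difference 0.00193 to 0.0241.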
